A study of Mus musculus with 9 samples.

Results

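Messenger RNA of injured mouse kidney was compared with that of sham-operated kidney across all genes, with 5 of the 9 libraries of the series. The 3 sham libraries came from kidneys that had the operation without the injury, and the 2 bIRI libraries from kidneys with bilateral ischemia-reperfusion injury, in which blood flow to both kidneys is stopped and then restored. RNA was taken 24 hours after reperfusion. Neither group received the beta-hydroxybutyrate sodium given in the third group of the series. That group's 3 libraries entered the shared fit and helped set the filter on low counts, the scaling and the spread of each gene. The library titled bIRI replicate 2 was left out, because in 29678 of 29678 genes it held the average of the other 2 bIRI libraries, without the fraction. The labels describe the samples as kidney tissue and do not give strain, age, sex, length of ischemia or the number of mice, and do not say whether the libraries of a group were taken from different animals. The p-values below therefore measure only the spread between libraries.

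The kidney filters blood in the glomerulus and recovers nearly everything it needs along the tubule. Proximal tubule cells do most of this work, live mainly on oxidative metabolism, and are the cells best known to suffer when blood flow stops. The thick ascending limb, which takes up salt in the outer medulla, lies where oxygen is scarce even in health. Injured proximal tubule cells are known to lose the genes of their specialised functions, to switch on genes of repair and secretion, and to re-enter the cell cycle, while white blood cells are drawn into the tissue. In these bulk libraries, fewer cells of a type and less RNA per cell cannot be told apart.

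The sham libraries held 43206974 (replicate 1), 45909063 (replicate 2) and 43498290 (replicate 3) counts, and bIRI replicates 1 and 3 held 41204065 and 33477985. Levels are given as CPM, a gene's counts relative to a library total that was normalised by the TMM method, always in that order of libraries, so that the first and second bIRI library are replicates 1 and 3, and 3 counts corresponded to 0.0654 to 0.0775 CPM, a floor that covers counting error only. The bIRI libraries stood apart from each other. Gene by gene they differed by a root mean square of 1.17 on the log2 scale, against 0.508 to 0.602 between sham libraries and 1.32 to 1.48 between a bIRI and a sham library. Long intergenic RNA genes took 0.573% of the counts of bIRI replicate 3, but only 0.153% to 0.179% elsewhere, and the count-weighted mean transcript length was 3640 bases against 2845 to 3101. Counts were seen for 24058 genes in bIRI replicate 3, the library of lowest depth, and for 21364 to 21995 genes in the others. Defining markers of kidney were present in every library, among them Umod of the thick ascending limb and Aqp2 of the collecting duct. The summed level of 8 such markers was 32970, 38450 and 52250 CPM in sham and 26290 and 14270 CPM in bIRI. In the test below, 2 of the 8 were called lower, against 16.2% of all genes, and 6, with Umod and Aqp2 among them, were not called.

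By edgeR's quasi-likelihood test, 6303 of 17967 genes (35.1%) were called at an adjusted p of 0.05. In bIRI 3396 were higher (18.9%) and 2907 lower (16.2%). The CPM of both bIRI libraries lay outside the sham range on the same side for 55.9% of genes. Genes called lower lay below the sham mean in both bIRI libraries in 2907 of 2907 cases, and genes called higher lay above it in both in 3371 of 3396. The test selects such genes from these same libraries, so these counts do not measure agreement between them. Among genes not called, both bIRI libraries lay on the same side of the sham mean in 6481 of 11664. The median log2 fold change was 1.52 for the genes called higher and -1.26 for those called lower, and 0.08 over all genes tested. Singly, and with no test, bIRI replicate 1 was at least 2-fold above the sham mean for 3046 genes (17%) and below it for 2966 (16.5%). The corresponding counts in bIRI replicate 3 were 4199 (23.4%) and 3314 (18.4%). Of the genes above in bIRI replicate 1, 64.8% were also above in bIRI replicate 3, and of those above in bIRI replicate 3, 47.0% were above in bIRI replicate 1. For the genes below, the shares were 56.4% and 50.5%. In 226 genes the bIRI libraries lay at least 2-fold off sham in opposite directions.

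**Figure D1:**
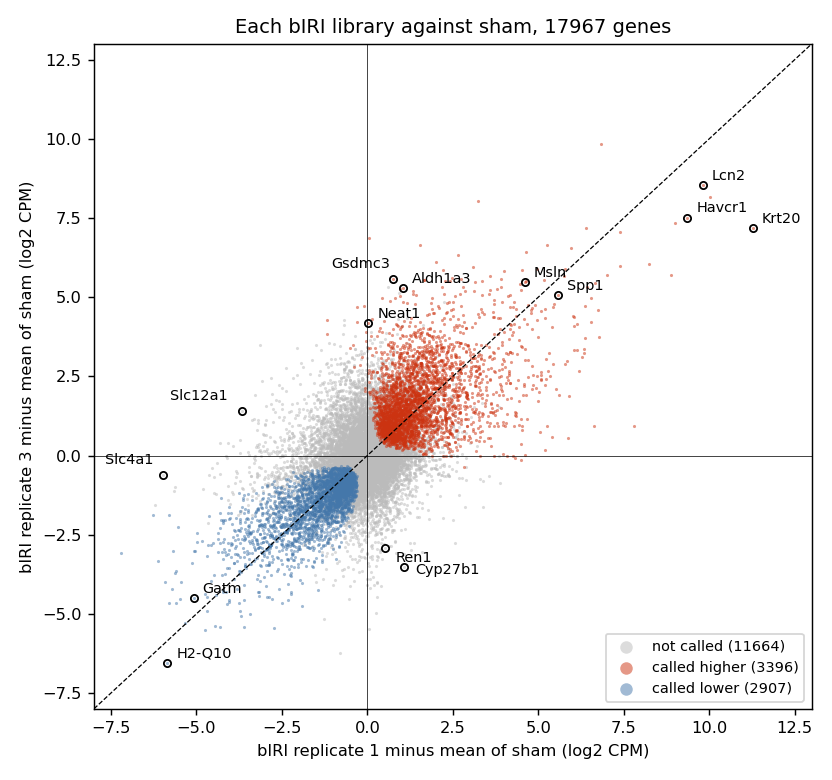
Difference of bIRI replicate 1 (x axis) and bIRI replicate 3 (y axis) from the mean of 3 sham libraries in log2 CPM, 1 point per gene, coloured by the edgeR call, with the dashed line marking equal differences and circles marking named genes. The 2907 genes called lower lie at the lower left, while Slc12a1, Slc4a1, Neat1, Cyp27b1 and Ren1 lie far from the line.

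Among the 12 largest rises of genes with at least 20 CPM in a group, several encode secreted or surface proteins of injured epithelium. Serpina3n, a serine protease inhibitor of the acute phase, rose from 0.298, 0.228 and 0.853 CPM to 36.6 and 5.71 CPM (log2 fold change 5.53, SE 0.80, adjusted p 0.000981 by edgeR's test, as for all adjusted p-values here). Both bIRI libraries were above all sham libraries, and bIRI replicate 3 was far below bIRI replicate 1. The actin cross-linker gene Flnc rose from 1.09, 0.525 and 0.6202 CPM to 60.9 and 7.04 CPM. Lgi2, of a family of secreted leucine-rich proteins, rose from 0.0497, 0.228 and 0.0517 CPM to 41.6 and 9.16 CPM. Msln, the mesothelin gene, was the exception in order, at 0.447, 0.776 and 0.801 CPM in sham and 17.1 and 31.2 CPM in bIRI, with the higher value in bIRI replicate 3. The small proline-rich genes Sprr2f and Sprr2g, whose near-identical copies make their counts uncertain, reached 49.5 and 13.5 CPM and 51.9 and 16.4 CPM. No fold is given for these, because sham libraries held no count of Sprr2f and at most 4 of Sprr2g. Other rises of this set were Krt20, Lcn2, Havcr1, Timp1 and Spp1, each higher in bIRI replicate 1 than in bIRI replicate 3.

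The 12 largest falls included several genes of metabolic enzymes. Inmt, which methylates indole amines, fell from 1151, 1308 and 1260 CPM to 45.9 and 27.02 CPM (log2 fold change -5.09, SE 0.47, adjusted p 0.000123). H2-Q10, a secreted class I histocompatibility gene with close relatives, fell by 6.35 on the log2 scale (SE 0.44), from 47.9, 23.8 and 44.3 CPM to 0.591 and 0.349 CPM. Clec2h, a C-type lectin-like gene, fell from 59.9, 83.5 and 49.7 CPM to 1.07 and 2.46 CPM, and the dipeptidase gene Cndp1 from 103, 91.6 and 90.2 CPM to 2.06 and 4.01 CPM. For all of these both bIRI libraries were far below the lowest sham library. The calls of Car3 and Ighm were less firm. Car3, a carbonic anhydrase gene at 117, 70.02 and 68.1 CPM in sham and 1.51 and 4.43 CPM in bIRI, was not called without bIRI replicate 1 (adjusted p 0.178) or without bIRI replicate 3 (0.142). Ighm, the immunoglobulin M heavy chain gene, had 10.9, 7.44 and 137 CPM in sham and 2.495 and 1.37 CPM in bIRI, and lost its call without bIRI replicate 1 (adjusted p 0.175) or 3 (0.248). Its sham replicate 3 stood far above the other sham libraries. Sectm1b, Fam151a, Cyp2d26, Igfbp1 and Gatm were also in the set.

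Genes were then read in lists by function and cell type. Each list's counts stand against the 18.9% of all genes called higher and the 16.2% called lower, and its medians against those of all genes tested, 0.04 for either bIRI library singly. The shares called changed with transcript length, as given below, and these shares of all genes were not matched to the lengths in a list. Of the 187 genes named here with a call, 36 lost it when 1 sham or bIRI library was left out, and these are stated where they occur. Ms4a1 could not be tested without sham replicate 2 or 3. A fit without 1 bIRI library takes the spread of the lone injured library from the other groups. The bIRI libraries differed from each other more than the sham libraries did, so calls of such fits describe only the library that remained. The main fit shares the spread of each gene over all groups as well. Its p-values may therefore be too small for genes in which the bIRI libraries differ. With only the sham and bIRI libraries in the fit, 4487 genes were called, against 6303. Among the 58 genes named without a call, 19 passed the test without bIRI replicate 1 and 22 without bIRI replicate 3, in the direction of the library that remained.

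**Figure D2:**
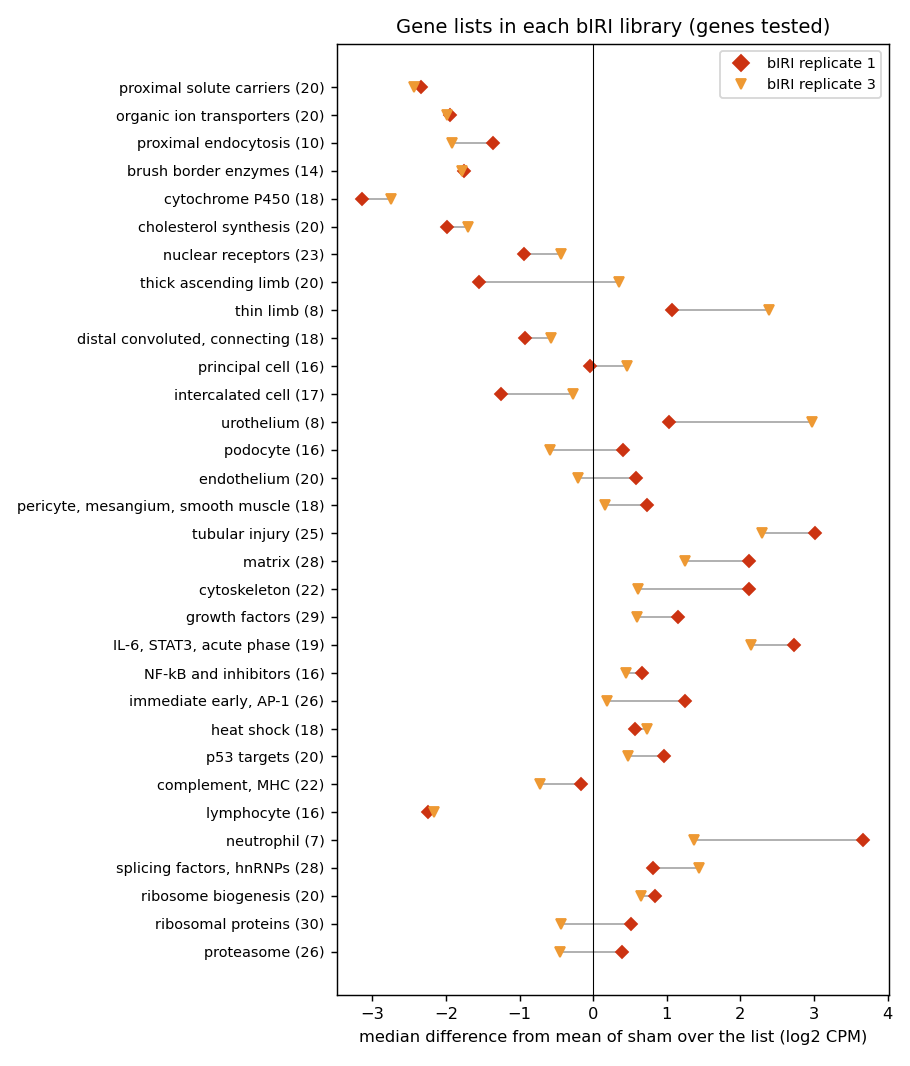
Median difference from the mean of 3 sham libraries in log2 CPM, over the genes tested of each list (number in brackets), for bIRI replicate 1 (red diamond) and bIRI replicate 3 (orange triangle). Proximal tubule, P450, cholesterol and lymphocyte lists have both symbols left of 0, injury and acute phase lists lie right of 0 in both libraries, and the thick ascending limb, podocyte, endothelial, ribosomal protein and proteasome lists have the libraries on opposite sides of 0.

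Transport genes of the proximal tubule fell in both bIRI libraries. Of 20 solute carrier genes of this segment, 16 were lower and 4 not called, with a median log2 fold change of -2.40 and medians of -2.34 in bIRI replicate 1 but -2.43 in bIRI replicate 3. Slc34a3, a phosphate carrier, fell from 39.4, 22.4 and 29.6 CPM to 2.41 and 0.654 CPM (log2 fold change -4.31, SE 0.64, adjusted p 0.00109). Slc5a2, the glucose carrier SGLT2 of the brush border, fell from 226, 127 and 169.6 CPM to 33.4 and 17.7 CPM, and Slc2a2, the glucose exit carrier GLUT2, from 246, 199.7 and 189 CPM to 41.3 and 39.7 CPM. Some genes of dibasic amino acid carriers were lower, for the brush border and for the blood side. On the brush border side, Slc3a1 and its partner Slc7a9 fell with log2 fold changes of -2.42 and -2.22, and on the blood side Slc7a7 with -2.42. Slc6a19, the main neutral amino acid carrier, was at 512, 389 and 329.8 CPM in sham and 147 and 21.4 CPM in bIRI (adjusted p 0.0336). Its neighbour in function Slc6a18, at 592, 817 and 627 CPM and 749 and 580 CPM, had overlapping groups and was not called (log2 fold change -0.03, adjusted p 0.95). The sodium-proton exchanger gene Slc9a3, at 125, 99.95 and 82.02 CPM and 77.2 and 125 CPM, the amino acid carrier chain Slc3a2 and the phosphate carrier Slc20a2 were not called either. Without bIRI replicate 3, Slc5a2 and Slc6a19 were no longer called (adjusted p 0.105 and 0.0769), and Slc6a19 was lost without any 1 sham library as well (0.0593 to 0.0845).

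The carriers that clear drugs and waste anions followed the same course, with 15 of 20 lower and 5 not called, and a median log2 fold change of -2.00. Slc22a8, the organic anion carrier OAT3, fell from 735, 694 and 700.4 CPM to 144 and 58.7 CPM, and Slc22a12, the urate carrier URAT1, from 2054, 2183 and 2240 CPM to 327 and 410.5 CPM. The cation exporter gene Slc47a1 fell by 1.92 (SE 0.20). Slc22a7, at 24.9, 93.6 and 72.97 CPM in sham and 25.3 and 47.1 CPM in bIRI, had overlapping groups and was not called. Slco4c1, an organic anion carrier of the blood side, was at 15.2, 22.8 and 13.1 CPM in sham, 1.62 CPM in the first bIRI library and 15.6 CPM in the second, inside the sham range in the second injured library and far below it in the first. Genes of protein uptake fell in 9 of 10. The receptor gene Cubn fell from 671, 612 and 489.8 CPM to 61.4 and 93.04 CPM and its membrane anchor Amn from 161, 164 and 192 CPM to 57.7 and 26.4 CPM. The lipid phosphatase gene Ocrl was not called (16.9, 15.98 and 13.1 CPM in sham, 17.9 and 26.6 CPM in bIRI). Of 14 brush border enzyme genes, 11 were lower. Xpnpep2, a membrane aminopeptidase, fell from 23.01, 22.5 and 17.7 CPM to 1.55 and 1.64 CPM (log2 fold change -3.72, SE 0.26), and Dpep1, a dipeptidase, from 234, 168 and 197 CPM to 42.4 and 9.84 CPM. Mme, the gene of neprilysin, was at 94.1, 122 and 97.8 CPM in sham and 47.01 and 93.4 CPM in bIRI and was not called.

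Genes of amino acid catabolism, fatty acid oxidation and oxidative phosphorylation were mostly lower, while those of glycolysis were split. Amino acid catabolism was lower in 25 of 26 genes, and in 26 of them bIRI replicate 1 was at least 2-fold below sham. Acmsd, which steers tryptophan breakdown away from quinolinate, fell from 167, 131 and 149 CPM to 6.57 and 10.8 CPM, and Kmo, of the same pathway, from 181, 172 and 173 CPM to 22.2 and 27.1 CPM. Prodh2, which breaks down hydroxyproline, fell by 3.54 (SE 0.28). Fatty acid oxidation was lower in 23 of 26 genes and nuclear oxidative phosphorylation in 27 of 36. In these 2 lists bIRI replicate 3 lay farther below sham than bIRI replicate 1, with medians of -1.55 against -1.13 and -1.47 against -0.94. Of 17 glycolysis genes, 6 were higher, 4 lower and 7 not called, with medians of -0.41 in bIRI replicate 1 but 0.34 in bIRI replicate 3. Ppargc1a, the coactivator that drives mitochondrial genes, was at 36.5, 40.6 and 30.7 CPM in sham, below that range in bIRI replicate 1 with 18.4 CPM and above it in bIRI replicate 3 with 79.3 CPM.

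Of 18 cytochrome P450 genes, which oxidise steroids, fatty acids and drugs, 14 were lower and 2 higher, with a median log2 fold change of -2.83. Cyp2e1 fell from 2712, 1966 and 3276 CPM to 193 and 102 CPM (log2 fold change -4.17, SE 0.39, adjusted p 0.000129), and Cyp7b1, an oxysterol hydroxylase, from 219.5, 446 and 512 CPM to 14.6 and 52.3 CPM. Members of the Cyp2d, Cyp2j and Cyp4a groups fell too, but share sequence with their neighbours and are uncertain singly. The enzymes of vitamin D moved otherwise. Cyp24a1, which inactivates vitamin D, rose from 9.59, 7.79 and 19.4 CPM to 63.6 and 60.1 CPM (log2 fold change 2.33, SE 0.39, adjusted p 0.00196). Cyp27b1, which activates it, was at 20.5, 12.7 and 16.8 CPM in sham, at 34.4 CPM in bIRI replicate 1 and at 1.396 CPM in bIRI replicate 3, so that the injured libraries lay on opposite sides of sham. Cyp1b1 rose from 16.03, 18.8 and 18.1 CPM to 70.2 and 22.8 CPM. When bIRI replicate 1 was left out, or without any 1 of the sham libraries, the number of P450 genes called higher was 1. Cyp1b1 was the gene lost (adjusted p 0.311 without bIRI replicate 1), and Cyp7b1 was not called without bIRI replicate 1 either (0.0706).

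Transcription factors of kidney development and repair were split, with 8 of 22 tested higher, 5 lower and 9 not called. Hnf4a, a nuclear receptor needed for proximal identity, fell from 897, 754 and 699 CPM to 246 and 203 CPM (log2 fold change -1.80, SE 0.22, adjusted p 0.000389). Maf fell from 148, 115 and 103 CPM to 48.6 and 41.8 CPM. Cux1 fell with a log2 fold change of -0.53. The number lower was 8 without bIRI replicate 3 and 3 without any 1 of the sham libraries. Cux1 was among the genes then lost (adjusted p 0.0599 to 0.102). Sox9, a factor of tubule repair, rose from 0.199, 0.114 and 0.207 CPM to 20.2 and 3.97 CPM, Runx1 from 0.845, 1.301 and 1.24 CPM to 17.6 and 7.63 CPM, and Sox4 from 10.04, 9.95 and 8.63 CPM to 37.8 and 46.96 CPM. Sox9 and Runx1 were higher in bIRI replicate 1 and Sox4 in bIRI replicate 3. Pax2, a master gene of kidney development, was at 24.4, 29.2 and 22.2 CPM in sham, 16.2 CPM in bIRI replicate 1 but 72.2 CPM in bIRI replicate 3, on opposite sides of sham, and Pax8 (68.5, 76.7 and 94.9 CPM, 92.3 and 94.1 CPM) was not called. Of 23 nuclear receptor genes, 11 were lower and 1 higher. Rxra, the partner of many other receptors, fell from 221, 177 and 160.4 CPM to 71.5 and 64.9 CPM, the vitamin D receptor gene Vdr from 317, 269.5 and 252 CPM to 87.9 and 125 CPM, and the bile acid receptor gene Nr1h4 from 154, 160.2 and 206 CPM to 89.9 and 44.8 CPM. Nr2f2 rose from 47.5, 53.2 and 46.6 CPM to 72.8 and 101 CPM. Nr3c1, the glucocorticoid receptor gene, had a log2 fold change of 0.01 (SE 0.18, adjusted p 0.97).

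Genes of the proximal carrier list have been studied as targets of Hnf4a, so their promoters were searched for the letters CAAAGTCCA, a core HNF4 motif, on both strands. The window was the 250 bases before the RefSeq gene start (assembly GRCm38.p6), which was available for 15 of the 20 carriers. The HNF4 letters were in 1 of these 15 windows and in 0.37% of 27025 promoters. The carrier with the HNF4 letters was Slc3a1, which fell from 622, 561 and 337 CPM to 72.6 and 117 CPM. Its window is shown because this is the 1 carrier that holds the motif (chr17:85028097-85028346, plus strand, HNF4 letters in capitals, beginning 39 bases before the start). A match is a description of the letters and not a site.
Slc3a1: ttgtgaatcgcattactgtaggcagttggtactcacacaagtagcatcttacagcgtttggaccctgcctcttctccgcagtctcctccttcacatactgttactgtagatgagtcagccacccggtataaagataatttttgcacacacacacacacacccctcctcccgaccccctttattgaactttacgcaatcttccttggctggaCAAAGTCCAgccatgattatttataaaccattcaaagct

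Cholesterol synthesis fell in both bIRI libraries. Cells make cholesterol from acetyl groups through mevalonate and squalene, and the genes of these steps are switched on together by the factor SREBP2, encoded by Srebf2. Of 20 genes of synthesis, uptake and control, 18 were lower and 2 not called, with medians of -1.98 in bIRI replicate 1 but -1.70 in bIRI replicate 3. Hmgcs1, the step that commits acetyl groups to the pathway, fell from 492, 405 and 449.8 CPM to 92.9 and 256 CPM. The mevalonate steps Mvk, Pmvk and Mvd fell with log2 fold changes of -1.75, -1.06 and -2.36. In the squalene and sterol steps, Sqle fell from 218, 190.3 and 193 CPM to 47.2 and 60.3 CPM, Cyp51 from 466, 467 and 449.6 CPM to 49.1 and 72 CPM (log2 fold change -2.93, SE 0.23, adjusted p 7.21e-05), and Nsdhl from 172, 132 and 168 CPM to 27.01 and 27.1 CPM. Insig1, which restrains SREBP2 and is itself one of its targets, fell from 333, 235 and 214 CPM to 14.6 and 28.9 CPM (log2 fold change -3.58, SE 0.34). Srebf2 itself fell with a log2 fold change of -0.92. For each of these genes both bIRI libraries were below all sham libraries. Fdps, whose reads processed copies can share, was at 2.31, 0.571 and 0.465 CPM and 0.372 and 1.05 CPM and was not called. Without sham replicate 1, Hmgcs1 and Pmvk were not called (adjusted p 0.0547 and 0.0729).

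The promoters of the cholesterol genes were searched on both strands for CCAAT, the box of the factor NF-Y, and for TCACNCCAC, a sterol regulatory element, a search chosen after the values had been seen. RefSeq windows were available for 13 of the 20 genes. CCAAT stood in 12 of 13 windows, against 34.3% of 27025 promoters and 35.6% of the windows of the genes tested. The sterol letters were in 1 of 13 windows, that of Hmgcs1, and in 1.03% of all promoters. Shown are the windows of Nsdhl, Mvd and Mvk, 3 called genes whose window lies wholly before the annotated gene, with each CCAAT or its reverse complement in capitals. They lie at chrX:72918271-72918520 on the plus strand, chr8:122443423-122443672 on the minus strand and chr5:114444019-114444268 on the plus strand (GRCm38.p6), and each sequence ends at the base before the start.
Nsdhl: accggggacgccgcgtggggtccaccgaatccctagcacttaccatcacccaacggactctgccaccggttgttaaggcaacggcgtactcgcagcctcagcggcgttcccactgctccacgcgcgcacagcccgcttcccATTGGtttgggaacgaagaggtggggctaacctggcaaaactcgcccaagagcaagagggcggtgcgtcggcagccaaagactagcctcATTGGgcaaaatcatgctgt
Mvd: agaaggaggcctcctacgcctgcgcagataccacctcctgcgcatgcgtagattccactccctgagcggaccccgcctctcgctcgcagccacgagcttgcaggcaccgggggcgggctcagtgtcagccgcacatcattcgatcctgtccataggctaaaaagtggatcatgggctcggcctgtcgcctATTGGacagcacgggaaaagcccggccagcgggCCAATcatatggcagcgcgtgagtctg
Mvk: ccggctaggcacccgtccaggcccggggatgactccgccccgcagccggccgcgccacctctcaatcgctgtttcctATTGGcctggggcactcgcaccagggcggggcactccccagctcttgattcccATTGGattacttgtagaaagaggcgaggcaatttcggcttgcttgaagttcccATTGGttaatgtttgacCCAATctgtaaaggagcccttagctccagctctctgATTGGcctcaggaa
The window of Nsdhl held 2 matches, beginning 109 and 20 bases before the start, that of Mvd held 2, at 60 and 27, and that of Mvk held 5, the nearest at 14. Nsdhl was at 27.01 and 27.1 CPM in bIRI, Mvd at 15.1 and 21.8 CPM and Mvk at 6.76 and 7.83 CPM, against 100.3, 85.4 and 97.9 CPM for Mvd and 28.6, 22.99 and 22.04 CPM for Mvk in sham.

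**Figure D3:**
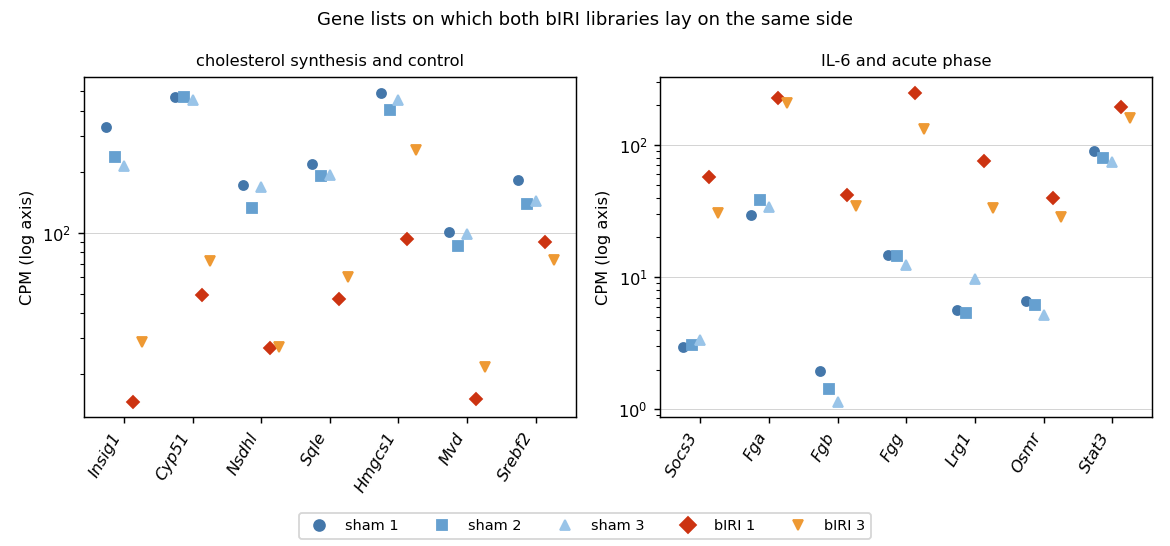
CPM on a log axis in each of 3 sham and 2 bIRI libraries for 7 genes of cholesterol synthesis and control (left) and 7 genes of the interleukin-6 response and acute phase (right), 1 symbol per library. Both bIRI libraries lie below all sham libraries for the genes on the left, such as Insig1 at 14.6 and 28.9 CPM, and above them for the genes on the right, such as Socs3 at 57.3 and 30.7 CPM.

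Beyond the proximal tubule the bIRI libraries parted. Of 20 thick ascending limb genes, 4 were lower and 1 higher in the fit of both, but the medians were -1.55 in bIRI replicate 1 but 0.35 in bIRI replicate 3. In 14 of the 20, bIRI replicate 3 was at least 2-fold above bIRI replicate 1, against 18.5% of all genes tested. Slc12a1, the salt carrier NKCC2 that loop diuretics block, was at 503, 542 and 272 CPM in sham, 33.1 CPM in the first bIRI library and 1114 CPM in the second, and over both its log2 fold change was 0.39 with an SE of 0.93. Casr, the calcium-sensing receptor, showed the same order (39.8, 29.3 and 14.9 CPM, then 3.22 and 34.7 CPM), as did the potassium channel gene Kcnj1 (188, 179 and 115 CPM, then 56.2 and 280 CPM). Egf, a growth factor made in this segment, was low in both, at 1407, 1223 and 788 CPM in sham and 21.5 and 136 CPM in bIRI (log2 fold change -3.86, SE 0.69, adjusted p 0.00276). Cldn10, a sodium pore of the junctions, fell from 377, 372 and 361 CPM to 35.6 and 141 CPM. The most abundant marker, Umod, was at 2394, 2614 and 1417 CPM in sham and 1412 and 2865 CPM in bIRI. Cldn14, which blocks calcium uptake, was the 1 gene that rose, to 7.07 and 0.742 CPM from at most 5 counts in a sham library. Without bIRI replicate 3, 13 of the 20 genes were called lower, and without bIRI replicate 1, 3 were called higher. Without sham replicate 2 or 3, 2 were called lower. The log2 fold change of Slc12a1 was -3.73 without bIRI replicate 3 and 1.27 without bIRI replicate 1.

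**Figure D4:**
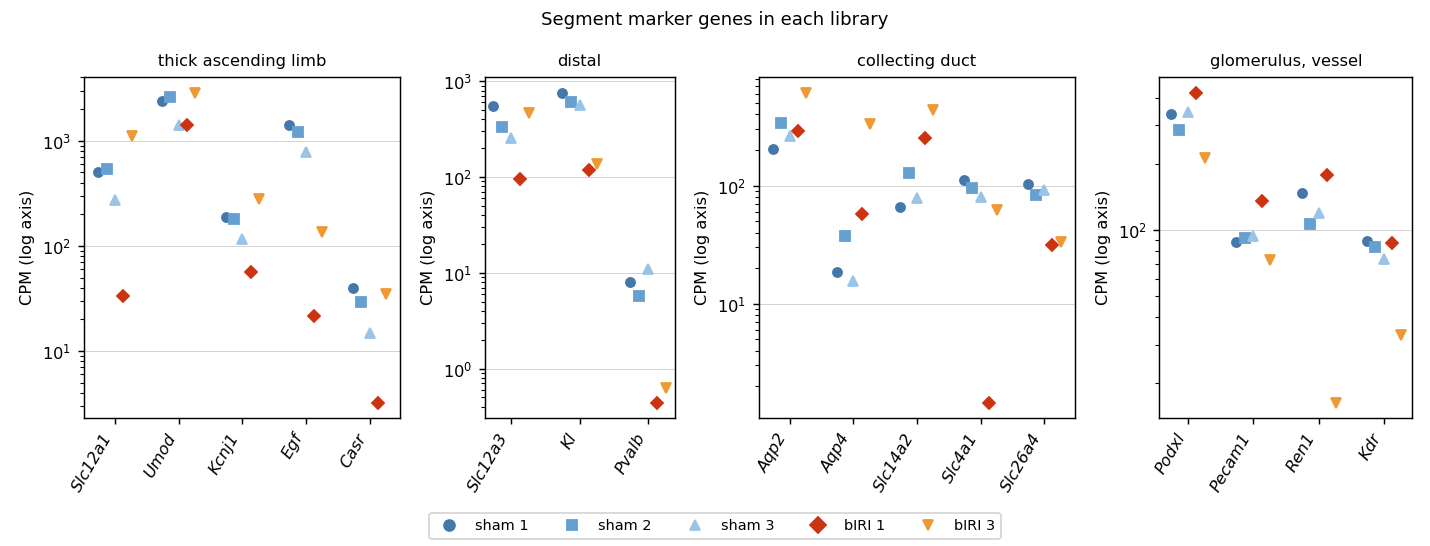
CPM on log axes, 1 scale per panel, of marker genes of the thick ascending limb, the distal tubule, the collecting duct, and the glomerulus and vessels, with 1 symbol for each of 3 sham and 2 bIRI libraries. For Slc12a1, Casr and Slc4a1 the red diamond of bIRI replicate 1 lies far below sham while the orange triangle of bIRI replicate 3 lies in, near or above the sham range, and for Ren1 the order is the other way round.

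In the distal convoluted and connecting tubule, 6 of 18 genes were lower and 2 higher, and 10 were lower without bIRI replicate 3. Kl, the gene of the phosphate hormone receptor Klotho, fell in both libraries, from 760, 607 and 571 CPM to 118 and 136 CPM (log2 fold change -2.35, SE 0.22, adjusted p 0.000136). Pvalb, a calcium binder of the early distal tubule, fell from 8.05, 5.73 and 10.9 CPM to 0.438 and 0.632 CPM, and the magnesium exporter gene Cnnm2 from 43.5, 35.1 and 30.6 CPM to 11.2 and 18.6 CPM. Slc12a3, the thiazide-sensitive salt carrier, was at 549, 329.8 and 254 CPM in sham, 95.1 CPM in bIRI replicate 1 but 462 CPM in bIRI replicate 3. Stk39, a kinase that activates the salt carriers, rose from 24.4, 29.3 and 24.4 CPM to 48.6 and 80.8 CPM. Intercalated cell genes, which move acid and base, were lower in 5 of 17 and higher in 2, with medians of -1.25 and -0.28. Slc4a1, the bicarbonate exchanger of acid-secreting cells, was at 112, 94.5 and 80.5 CPM in sham, 1.44 CPM in the first bIRI library and 62.1 CPM in the second, while Slc26a4, pendrin of the base-secreting cells, fell alike in both, from 104, 82.95 and 91.2 CPM to 31.2 and 33.1 CPM. Foxi1, the factor that makes intercalated cells, was at 36.5, 38.3 and 41.01 CPM and 36.9 and 30.99 CPM and was not called. Without bIRI replicate 3 the median log2 fold change of the list was -1.27, against -0.475 with both, and the log2 fold change of Slc4a1 was -6.045. Both genes called higher lost the call without bIRI replicate 3 or sham replicate 1 or 2, and 2 genes were lower without sham replicate 1 or 3. With trends of transcript length and GC content removed, 2 were lower and 0 higher.

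Genes of the inner medulla and of principal cells of the collecting duct included more rises than falls. Of 8 thin limb and inner medullary genes, 6 were higher and 1 lower, with medians of 1.07 in bIRI replicate 1 and 2.40 in bIRI replicate 3. Slc14a2, the urea carrier of the inner medullary collecting duct, rose from 66.4, 128 and 78.8 CPM to 252 and 434 CPM, and Akr1b3, which makes sorbitol as an osmolyte, from 46.3, 53.5 and 56.1 CPM to 111 and 289 CPM. Aqp1, the water channel shared by proximal tubule, thin limb and endothelium, fell from 1414, 1755 and 1128 CPM to 297 and 615 CPM. Among 16 principal cell genes, 5 were higher and 1 lower. Aqp4, a water channel of the blood side, rose from 18.5, 37.7 and 15.7 CPM to 57.5 and 334 CPM, and Elf5, a factor of principal cells, from 1.59, 4.52 and 2.12 CPM to 16.5 and 37.6 CPM. Hsd11b2, which shields the mineralocorticoid receptor from cortisol-like hormones, fell from 238, 259 and 284 CPM to 68.3 and 128 CPM. Aqp2, the vasopressin-regulated channel, was at 203, 339 and 265 CPM and 291 and 612 CPM and was not called. Without bIRI replicate 3, 3 of the 8 thin limb genes and 2 of the 16 principal cell genes were higher, and 5 principal cell genes were lower. Without sham replicate 1 or 3, 2 and 3 principal cell genes were higher. Aqp4 lost its call without bIRI replicate 3 (adjusted p 0.319) or sham replicate 1 or 3 (0.0505 and 0.0508), and Akr1b3 without bIRI replicate 3 (0.0823). Markers of urothelium, which lines the renal pelvis, were high in the same libraries. Their summed level was 14.4 to 18.2 CPM in sham, 46.2 CPM in bIRI replicate 1 but 156.7 CPM in bIRI replicate 3, and 5 of 8 were called higher (2 of 8 without bIRI replicate 3, sham replicate 1 or sham replicate 3, and 3 without sham replicate 2). How much tissue from the inner medulla and pelvis each library held was not tested. Krt5, a basal cell keratin, was at 1.04, 0.685 and 1.81 CPM in sham and 16.9 and 45.1 CPM in bIRI, and Upk3a, of the surface cells, at 2.44, 2.99 and 3.15 CPM and 0.591 and 15.9 CPM. Markers of adrenal cortex summed to 2.998 to 5.496 CPM in all 5 libraries, and those of striated muscle to 0.6566 to 2.835 CPM.

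Among podocyte and endothelial genes few were called, shares near or below those of all genes, and bIRI replicate 1 was the higher of the injured libraries. Podocyte genes had medians of 0.40 in bIRI replicate 1 but -0.59 in bIRI replicate 3, with 2 of 16 higher and 2 lower. Podxl, of the podocyte surface, was at 339, 285 and 345 CPM in sham and 422 and 213 CPM in bIRI and was not called. Cd2ap, an adaptor that tubule cells also use, rose from 28.6, 32.9 and 35.6 CPM to 194 and 281 CPM (log2 fold change 2.88, SE 0.23, adjusted p 6.73e-05). Without bIRI replicate 1, 7 podocyte genes were lower, and without bIRI replicate 3, 5 were higher and 1 lower. The 2 called lower were lost without any 1 sham library. Of 20 endothelial genes, 3 were higher and 1 lower, with 8 higher without bIRI replicate 3, 6 lower without bIRI replicate 1, and 1 higher without bIRI replicate 1 or any 1 of the sham libraries. Pecam1, common to all endothelium, was at 88.2, 91.99 and 93.5 CPM in sham and 136 and 73 CPM in bIRI, and Kdr, the receptor of vascular endothelial growth factor, at 88.7, 83.1 and 73.7 CPM and 87.2 and 33.2 CPM. Nos3, which makes nitric oxide, rose from 4.82, 4.79 and 4.91 CPM to 19.9 and 8.62 CPM. Among 18 genes of pericytes, mesangium and smooth muscle, 6 were higher and 1 lower, with 2 higher and 3 lower without bIRI replicate 1 and 1 higher without sham replicate 1 or 2. Acta2, smooth muscle actin, was at 52.98, 56.03 and 94.7 CPM in sham, 404 CPM in bIRI replicate 1 but 74.3 CPM in bIRI replicate 3, inside the sham range in the latter. Its call (adjusted p 0.0284) was lost without bIRI replicate 1 (0.879) or sham replicate 1 or 2 (0.0959 and 0.0895), and that of Nos3 without bIRI replicate 1 (0.0649). Postn, the matrix protein periostin, rose from 0.298, 0.3196 and 0.594 CPM to 19.02 and 11.97 CPM.

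Genes of vessel tone and clotting included more rises than falls. Of 20 vasoactive and clotting genes, 9 were higher and 2 lower, the latter count rising to 5 without bIRI replicate 1. The constrictor endothelin, Edn1, rose from 1.61, 1.26 and 1.65 CPM to 14.1 and 5.71 CPM, and its receptor gene Ednrb from 15.3, 18.9 and 16.9 CPM to 45.4 and 33.2 CPM, while the other receptor gene Ednra, at 3.504, 4.11 and 2.997 CPM and 4.29 and 1.505 CPM, was not called. Adm, which relaxes vessels, rose from 5.57, 5.89 and 9.41 CPM to 30.9 and 12.4 CPM (adjusted p 0.0089, and 0.0535 without bIRI replicate 1). F3, the tissue factor that starts clotting, rose from 17.8, 16.8 and 14.96 CPM to 96.5 and 59.9 CPM (log2 fold change 2.24, SE 0.23, adjusted p 0.000215). Plaur, the receptor of the plasminogen activator urokinase, rose from 5.86, 5.41 and 6.07 CPM to 107 and 44.7 CPM, but urokinase itself, Plau, was at 533, 925 and 549.7 CPM and 768 and 484 CPM and was not called. In the renin-angiotensin system, the converting enzyme gene Ace fell from 211, 258 and 176 CPM to 45.6 and 48.4 CPM and the receptor gene Agtr1a from 50.1, 44.4 and 41.6 CPM to 19.96 and 7.98 CPM. Ren1, the gene of renin, was at 147, 106 and 119.7 CPM in sham, 177 CPM in the first bIRI library and 16.2 CPM in the second, above the sham range in the first injured library and far below it in the second.

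Genes of tubular injury were higher in 23 of 25 and 2 were not called. The count is no independent evidence of direction, since the list was drawn from knowledge of injured kidney and with earlier results of these data known. The median reached 3.01 in bIRI replicate 1 and 2.30 in bIRI replicate 3, and bIRI replicate 1 was the farther from sham in 21 of 25. Anxa3, of the calcium-dependent membrane binders, rose from 10.9, 10.7 and 13.4 CPM to 204 and 67.9 CPM, and Anxa2 from 63.1, 79.1 and 77.3 CPM to 701 and 325 CPM. Krt19, a keratin of simple epithelium, rose from 3.03, 3.52 and 4.81 CPM to 72.1 and 96.6 CPM (log2 fold change 4.48, SE 0.31, adjusted p 4.92e-05) and Myof, which repairs membranes, from 19.9, 22.9 and 17.1 CPM to 109 and 173 CPM, and both were higher in bIRI replicate 3. The adhesion genes Vcam1 (9.27, 9.02 and 11.6 CPM, 25.2 and 11.3 CPM) and Icam1 (27.6, 27.97 and 27.8 CPM, 43.7 and 24.4 CPM) were not called.

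Growth factor genes changed in both directions. Of 29 ligand and receptor genes, 14 were higher and 4 lower. Ligands of the interleukin-6 family rose steeply, Lif from 0.298, 0.457 and 0.465 CPM to 19.1 and 11.4 CPM (log2 fold change 5.22, SE 0.33, adjusted p 4.92e-05) and Il11 from 0.149, 0.0913 and 0.0517 CPM to 5.32 and 0.829 CPM. The activin subunit gene Inhba rose from 0.0994, 0.183 and 0.155 CPM to 12.4 and 1.85 CPM, and Inhbb from 1.64, 2.51 and 2.3 CPM to 25.4 and 4.1 CPM, the latter not called without bIRI replicate 1 (adjusted p 0.0615). Within the epidermal growth factor family, Hbegf rose from 15.7, 18.2 and 27.3 CPM to 76.6 and 34.6 CPM and Ereg, with 0 counts in sham, reached 1.97 and 0.305 CPM, while Egf fell, as given above with its segment. Erbb3, a receptor of this family, fell by 1.07 on the log2 scale (SE 0.21). Fgf2 rose from 1.09, 0.594 and 0.775 CPM to 4.62 and 6.303 CPM, and Bmp7, which protects tubule cells, fell from 55.1, 44.6 and 54.1 CPM to 30.1 and 22.03 CPM. Tgfb1, the main fibrosis signal, was at 18.9, 16.7 and 17.6 CPM in sham, above it in bIRI replicate 1 with 41.6 CPM and below it in bIRI replicate 3 with 13.2 CPM.

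Matrix and adhesion genes rose in 23 of 28, with medians of 2.12 and 1.25. Vcan, a large proteoglycan, rose from 0.199, 0.3196 and 0.258 CPM to 7.49 and 13.7 CPM, and the laminin chain gene Lamb3 from 3.11, 2.99 and 2.87 CPM to 15.01 and 27.9 CPM. Col3a1, a fibrillar collagen, rose from 25.1, 27.6 and 26.1 CPM to 164 and 94.4 CPM. Among proteases, Adamts1 rose from 20.97, 20.2 and 17.1 CPM to 173 and 109.6 CPM and Mmp14 from 6.73, 6.19 and 6.95 CPM to 29.2 and 13.9 CPM. Mmp10 had 0 counts in sham, 4.64 CPM in bIRI replicate 1 and 0.0436 CPM, below 3 counts, in bIRI replicate 3, and was not called without bIRI replicate 1 (adjusted p 0.225). Timp3, a protease inhibitor bound to matrix, fell from 806, 507 and 387 CPM to 213 and 311 CPM, and the collagenase gene Mmp13 from 1.09, 0.959 and 0.775 CPM to 0.394 and 0.174 CPM. Both calls were lost without sham replicate 1 (adjusted p 0.074 and 0.104), that of Timp3 without bIRI replicate 1 (0.0539), and that of Mmp13 without bIRI replicate 3 (0.118), sham replicate 2 (0.0917) or sham replicate 3 (0.0615). Fn1, the fibronectin gene, was at 25.3, 31.9 and 34.2 CPM and 38.3 and 16.5 CPM and was not called.

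The cytoskeleton list rose in 14 of 22 genes, more in bIRI replicate 1 (median 2.12) than in bIRI replicate 3 (0.61), and in 14 genes bIRI replicate 3 was at least 2-fold below bIRI replicate 1, against 13.2% of all genes tested. The median log2 fold change was 1.52, and 0.54 without bIRI replicate 1. Tpm4, a tropomyosin, rose from 64.2, 62.9 and 70.8 CPM to 624 and 165 CPM, and the membrane linker gene Msn from 168, 168 and 168 CPM to 742 and 259.5 CPM. The tubulin gene Tubb2b rose from 10.3, 9.31 and 11.5 CPM to 54.9 and 68.3 CPM (SE of the log2 fold change 0.18). Tuba1b was at 69.5, 69.2 and 77.99 CPM in sham, 288 CPM in bIRI replicate 1 but 66.1 CPM in bIRI replicate 3. It was not called (adjusted p 0.0522), with log2 fold changes of 1.996 without bIRI replicate 3 and -0.198 without bIRI replicate 1. Vil1, of the brush border core, fell from 243, 250.1 and 245 CPM to 162 and 123 CPM, a call lost without sham replicate 1 or 2 (adjusted p 0.0521 and 0.0566). In the cell junctions, 7 of 20 genes were higher and 4 lower. Cldn4 and Cldn7 rose to 214 and 88.4 CPM and 81.3 and 46.5 CPM from 19.7, 25.6 and 22.6 CPM and 20.4, 22.1 and 21.9 CPM, and Cdh6, a cadherin of the developing tubule, from 2.58, 4.09 and 3.57 CPM to 16.6 and 17.5 CPM. Cldn2, the leaky claudin of the proximal tubule, fell from 572, 482 and 383 CPM to 135 and 204 CPM.

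Targets of the mechanically sensed factor YAP were higher in 8 of 16, but in 5 with only the sham and bIRI libraries, without any 1 of the beta-hydroxybutyrate libraries or with the replicate number as a block, and in 4 or 5 without any 1 sham library. Ankrd1 rose from 1.29, 1.51 and 1.602 CPM to 28.4 and 20.96 CPM (log2 fold change 4.07, SE 0.25, adjusted p 4.92e-05) and the binding partner gene Tead1 from 40.4, 34.9 and 19.6 CPM to 83.8 and 118 CPM. Ccn2, often read as a YAP target, was at 87.96, 109 and 134 CPM in sham, 566 CPM in the first bIRI library and 68.99 CPM in the second, and was not called over both. Its log2 fold change was 2.36 without bIRI replicate 3 and -0.74 without bIRI replicate 1. Cell cycle genes were higher in 15 of 29, and stood higher in bIRI replicate 3 (median 1.45) than in bIRI replicate 1 (1.11). Cenpf, a kinetochore gene of mitosis, rose from 0.0497, 0.137 and 0.155 CPM to 0.525 and 3.75 CPM, and Rrm2, which supplies nucleotides for replication, from 4.05, 4.16 and 4.83 CPM to 20.03 and 12 CPM. Among targets of p53, 9 of 20 were higher and 11 not called. Gadd45a, which slows the cycle after damage, rose from 11.2, 13.01 and 19.8 CPM to 78.2 and 46.04 CPM, and the death receptor gene Tnfrsf10b from 3.43, 2.65 and 2.64 CPM to 11.7 and 6.303 CPM. Bax, which opens mitochondria in cell death, was at 20.3, 24.2 and 34.9 CPM in sham, 53.9 CPM in bIRI replicate 1 but 16.8 CPM in bIRI replicate 3, and Bbc3 was at 2.68, 2.99 and 2.3 CPM and 2.15 and 2.09 CPM. Neither was called.

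Stress responses were uneven. Of 18 heat shock genes, 10 were higher and 1 lower. The inducible chaperone gene Hspa1b rose from 13.8, 18.4 and 11.9 CPM to 46.6 and 101 CPM and the small chaperone gene Hspb1 from 9.29, 12.1 and 16.8 CPM to 165 and 32.6 CPM, the former higher in bIRI replicate 3 and the latter in bIRI replicate 1. Hspa1b has a near copy, Hspa1a, at 6.54, 9.86 and 7.39 CPM and 15.3 and 14.3 CPM. Hspd1, the mitochondrial chaperone, fell from 544, 535 and 491 CPM to 322 and 376 CPM, a call that was lost without any 1 of the sham libraries (adjusted p 0.0735 to 0.123). In the unfolded protein and integrated stress responses, 8 of 22 were higher and 1 lower, with 5 and 3 higher without sham replicates 1 and 2. Atf4, a central factor of the integrated response, rose from 84.3, 95.7 and 78.1 CPM to 239.9 and 132 CPM and Hspa5, the chaperone of the endoplasmic reticulum, from 294, 253 and 236 CPM to 371 and 535 CPM. The call of Hspa5 was lost without bIRI replicate 3 (adjusted p 0.0687) or sham replicate 2 or 3 (0.0879 and 0.0769). Herpud1, which serves protein disposal there, fell from 387, 394 and 418 CPM to 91.1 and 113 CPM (log2 fold change -1.97, SE 0.19, adjusted p 0.000145).

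Antioxidant genes included more falls than rises, with 4 of 20 higher and 8 lower. Srxn1, which repairs peroxiredoxins, was at 141, 111 and 115 CPM in sham and 867 and 186 CPM in bIRI, and Slc7a11, the cystine importer, at 0.447, 0.0457 and 0.155 CPM and 3.502 and 0.676 CPM, both called higher. When bIRI replicate 1 was left out, all 4 genes called higher lost the call (Srxn1 with an adjusted p of 0.0675 and Slc7a11 of 0.159), and without sham replicate 2, 2 were higher. Slc7a11 was not called without sham replicate 2 or 3 (0.0573 and 0.0708). Catalase, Cat, fell from 2168, 1929 and 1856 CPM to 459.6 and 508 CPM, the glutathione peroxidase gene Gpx1 from 2150, 2314 and 2423 CPM to 629 and 345 CPM, and the mitochondrial dismutase gene Sod2 from 391, 395 and 426 CPM to 157 and 156 CPM. The classic NRF2 targets Nqo1 (291, 283 and 326 CPM, 260.5 and 185 CPM) and Gclc (440.5, 486 and 468 CPM, 399 and 472 CPM) were not called. Mt1, a metal-binding gene, was at 141, 142 and 194 CPM in sham and rose to 1614 and 270.3 CPM, and Slc11a2, an iron importer, fell from 145, 142 and 101 CPM to 42.7 and 43.2 CPM. Of 13 genes of metal binding and iron, 5 were higher and 1 lower, with 3 higher and 3 lower without bIRI replicate 1, and 3 higher without sham replicate 2 or 3. Mt1 was among those lost without bIRI replicate 1 (adjusted p 0.104).

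The immediate early and AP-1 genes, which respond within minutes to many stimuli, were higher in 8 of 26 and not called in 18. Sham libraries were themselves uneven for the fastest of them. Fos was at 3.23, 23.9 and 22.8 CPM in sham and 11.99 and 12.5 CPM in bIRI, and Nr4a1 at 2.66, 27.3 and 55.5 CPM and 13.7 and 6.5 CPM. In both, sham replicate 1 was far below the other sham libraries. Without sham replicate 1, 4 of the 26 were called lower, Fos and Nr4a1 among them (adjusted p 0.0269 and 0.0123). The genes called higher included Fosl1, at 0.0745, 0 and 0.0517 CPM in sham and 6.79 and 2.16 CPM in bIRI, Klf6, which rose from 21.1, 22.9 and 27.7 CPM to 164 and 95.05 CPM, and Myc, which rose from 10.9, 15.1 and 5.79 CPM to 59.6 and 28.3 CPM. The median log2 fold change of the list was 0.52, and -0.13 without bIRI replicate 1. The AP-1 letters TGACTCA, on either strand, stood in 0 of the 20 windows of these genes that RefSeq gives and in 4.42% of all promoters.

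The interleukin-6 and acute phase genes rose in 14 of 19, with medians of 2.73 in bIRI replicate 1 and 2.14 in bIRI replicate 3, and bIRI replicate 1 was the farther from sham in 16 of 19. Receptors of the family share a signalling chain and act through STAT3. Osmr, the oncostatin M receptor, rose from 6.66, 6.16 and 5.17 CPM to 39.99 and 28.7 CPM and Il6ra from 3.06, 2.72 and 3.46 CPM to 7.68 and 5.3 CPM, while the shared chain Il6st (165, 131 and 107 CPM, 137 and 159 CPM) and Lifr (59.3, 59.6 and 49.2 CPM, 39.2 and 67 CPM) were not called. Stat3 rose from 89.3, 80.02 and 74.96 CPM to 193 and 159 CPM, and Socs3, the inhibitor it induces, from 2.98, 3.06 and 3.36 CPM to 57.3 and 30.7 CPM (log2 fold change 3.81, SE 0.26, adjusted p 4.92e-05). The 3 fibrinogen chain genes rose together, Fga from 29.6, 38.1 and 34.1 CPM to 227 and 208 CPM, Fgb from 1.94, 1.42 and 1.14 CPM to 41.8 and 34.5 CPM and Fgg from 14.8, 14.4 and 12.4 CPM to 249 and 133 CPM. Lrg1, a secreted leucine-rich protein, rose from 5.62, 5.37 and 9.69 CPM to 75.6 and 33.1 CPM, and Saa1 reached 1.66 and 0.916 CPM from 0 counts in sham. Without bIRI replicate 1, Lrg1 and Il6ra were not called (adjusted p 0.134 and 0.107), and Il6ra was lost without any 1 sham library too (0.0505 to 0.0979).

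Genes of NF-kB and its inhibitors were higher in 7 of 16 and lower in 1. Nfkbiz, an inducible partner of NF-kB, rose from 3.25, 5.94 and 4.93 CPM to 23.9 and 32.8 CPM, while the feedback inhibitors Nfkbia (26.4, 34.8 and 34.9 CPM, 46.1 and 36.95 CPM) and Tnfaip3 (8.498, 6.37 and 7.39 CPM, 6.33 and 7.09 CPM) were not called. An NF-kB motif, GGG and TTCC with 3 bases between on either strand, stood in 5 of the 13 windows available for the list and in 4.71% of all promoters. Of these 5 genes, Nfkb2, Nfkbia, Nfkbie, Tnfaip3 and Tnip1, Tnip1 alone was called. It fell from 45.2, 41.8 and 50.5 CPM to 30.4 and 20.3 CPM, while Nfkb2 had an adjusted p of 0.0502. The log2 fold change of Nfkb2 was 0.24 without bIRI replicate 1 and 0.89 without bIRI replicate 3. Cytokine and chemokine genes were higher in 10 of 25 and lower in 3. Il34 and Csf1, both ligands of the macrophage receptor Csf1r, rose from 10.7, 11.8 and 17.8 CPM to 127 and 30.5 CPM and from 12.5, 11.3 and 13.02 CPM to 64.02 and 33.1 CPM, while Csf1r fell from 41.2, 63.6 and 54.1 CPM to 17.5 and 25.1 CPM. The neutrophil attractant Cxcl1 rose from 0.845, 0.594 and 3.95 CPM to 9.67 and 21.4 CPM, and was not called without bIRI replicate 3 (adjusted p 0.133). Cxcl12, which retains white blood cells, fell from 232, 277 and 196 CPM to 54.9 and 76.5 CPM, and Cxcl9, induced by interferon gamma, from 1.69, 1.39 and 1.52 CPM to 0.0438 and 0.0872 CPM. Interferon-stimulated genes were higher in 3 of 20, a share below that of all genes, with 7 higher without bIRI replicate 1 and 1 without bIRI replicate 3 or any sham library, and 6 higher and 2 lower with trends of transcript length and GC content removed. Ifit2 was at 6.91, 7.603 and 6.82 CPM in sham and 12.8 and 27.7 CPM in bIRI.

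Among 22 complement and histocompatibility genes, 4 were lower, all of class II presentation, and 18 not called. H2-Aa fell from 104, 104 and 176 CPM to 20.6 and 6.65 CPM (log2 fold change -3.23, SE 0.48, adjusted p 0.00109) and Cd74, the chain that guides class II molecules, from 179, 160.3 and 266 CPM to 45.7 and 21.3 CPM. Class I genes such as H2-K1 (296, 252 and 338 CPM, 262 and 162 CPM) and complement genes such as C3 (41.5, 23.8 and 46.8 CPM, 36.8 and 76.1 CPM) were not called. When bIRI replicate 1 was left out, 11 of the 22 were lower. Macrophage genes were higher in 5 of 16 and lower in 2, with 3 higher without bIRI replicate 1 and 4 lower without bIRI replicate 3. Cd68, of the macrophage lysosome, rose from 3.21, 3.74 and 5.89 CPM to 36.97 and 20.8 CPM and Cd14, a receptor that injured tubules also make, from 8.597, 9.63 and 12.2 CPM to 72.9 and 22.6 CPM, while Adgre1, the resident marker F4/80, was at 5.04, 3.88 and 7.65 CPM and 1.64 and 3.402 CPM and was not called. Neutrophil genes were higher in 5 of 7 tested, at low levels. The list's summed level was 1.438 to 2.119 CPM in sham, 14.97 CPM in bIRI replicate 1 but 5.649 CPM in bIRI replicate 3. Mpo, Ngp and Camp, with at most 6 counts in a library, and Ly6g, at 0 in all 5 libraries, were not tested. The filter on low counts could keep a gene through the injured libraries alone, so 5 of 7 is no independent evidence of direction. Without sham replicate 2 or 3, 3 were higher. The median log2 fold change was 3.28, and 1.68 without bIRI replicate 1. S100a9, a calcium binder of neutrophils, was at 0.199, 0.0457 and 0.594 CPM in sham and 4.51 and 2.25 CPM in bIRI. Lymphocyte genes were lower in 8 of 16, with 5 lower without bIRI replicate 1 or 3 and 4 without sham replicate 3. Trbc2, a T cell receptor chain, fell from 0.621, 0.913 and 1.29 CPM to 0.0438 and 0.0654 CPM, and Ms4a1, the B cell marker CD20, from 0.199, 0.3196 and 0.569 CPM to 0 counts in both bIRI libraries. Without sham replicate 2 or 3, Ms4a1 did not pass the filter on low counts and was not tested. The summed level of 7 red cell genes ran from 103 to 297.9 CPM, but these include Slc4a1, which intercalated cells also use. Without it the sums were 183.9, 42.75 and 217.4 CPM in sham and 152.8 and 40.94 CPM in bIRI. Of 6 adipocyte genes tested, Fabp4 and Cidec were higher (Cidec not without bIRI replicate 1 or sham replicate 1, adjusted p 0.168 and 0.065), but the defining gene Adipoq was at 0, 0.0457 and 0 CPM and 0.0875 and 0.174 CPM.

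Circadian genes changed in both directions. Of 18, 3 were higher and 7 lower. The activator gene Arntl rose from 2.54, 2.94 and 4.03 CPM to 8.01 and 10.4 CPM and its partner Clock from 17.4, 17.8 and 23.9 CPM to 44.3 and 43.9 CPM. The output factor genes Dbp, Tef and Hlf, which the activators drive, fell from 94.5, 94.4 and 93.95 CPM to 22.9 and 22.4 CPM, from 362, 327 and 308 CPM to 81.6 and 91.7 CPM and from 114, 95.2 and 92.9 CPM to 21.6 and 32.1 CPM. Nr1d1, which represses Arntl, fell from 96.9, 108 and 90.03 CPM to 33.5 and 50.3 CPM, and Cry2 from 27.3, 25.02 and 21.96 CPM to 12.7 and 12.4 CPM. Both bIRI libraries were outside the sham range on the same side for each of these genes. Per1 (24.8, 35.4 and 52.5 CPM, 40.2 and 40.5 CPM) was not called. The labels give no hour of day for the operations.

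Splicing factor and hnRNP genes, which process nuclear RNA, rose in 21 of 28, with medians of 0.82 in bIRI replicate 1 and 1.44 in bIRI replicate 3. Hnrnpu, a nuclear scaffold gene, rose from 132, 128 and 129 CPM to 274 and 378 CPM, and Luc7l3, of the splice site machinery, from 9.32, 10.3 and 10.5 CPM to 37.6 and 92.7 CPM. Genes that build ribosomes were higher in 11 of 20 (medians 0.84 and 0.65). Ncl, nucleolin, rose from 95.2, 94.02 and 98.9 CPM to 352 and 372 CPM (log2 fold change 1.92, SE 0.17, adjusted p 0.000101) and Nop58 from 4.03, 4.77 and 5.32 CPM to 34.2 and 54.5 CPM. Ribosomal protein genes, in contrast, lay at a median of 0.52 in bIRI replicate 1 but -0.44 in bIRI replicate 3, with 2 of 30 higher and 28 not called. Without bIRI replicate 1, 13 were lower and the median log2 fold change was -0.52, without bIRI replicate 3, 6 were higher, and without sham replicate 1 or 2 both calls were lost. With trends of transcript length and GC content removed, 10 were higher. Proteasome genes split the same way, with medians of 0.39 and -0.45, 1 of 26 called, 14 lower and a median of -0.53 without bIRI replicate 1, and 6 higher and a median of 0.38 without bIRI replicate 3. The call was lost without bIRI replicate 1, sham replicate 1 or sham replicate 2, and 4 were higher with those trends removed. Of 9 replication histone genes tested, 4 were lower and 5 not called. Hist1h1b and Hist1h3c had 0 counts in all 5 libraries, and counts of Hist1h2ae and Hist1h4d were too low for the test. The RNA was selected with oligo(dT), and the effect of that selection on these genes was not tested.

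Transcript length and gene type moved with the difference between the injured libraries. Across 12390 genes, which are not independent replicates, Spearman's rho between transcript length and the log2 difference from sham was 0.0548 in bIRI replicate 1 but 0.334 in bIRI replicate 3, given as a description of libraries that share their sham reference. In the fifth of genes with the shortest transcripts, up to 1710 bases, the median difference was 0.0217 in bIRI replicate 1 but -0.58 in bIRI replicate 3. In the fifth with the longest, from 5117 bases, it was 0.118 and 0.438. Among 581 long intergenic RNA genes the medians were -0.194 and 0.513, among 539 antisense genes -0.22 and 0.561, and among 892 processed pseudogenes 0.18 and -0.475, while 14938 protein-coding genes had 0.0386 and 0.00789. The strand setting of the counts is not given in the sources used here, so antisense genes and their partners cannot be told apart. Of 7 nuclear-retained long RNA genes tested, 5 were higher, with 1 higher without bIRI replicate 3 and 3 without sham replicate 1. Neat1, which builds paraspeckles, was at 69.2, 129 and 128 CPM in sham, 106 CPM in bIRI replicate 1 but 1901 CPM in bIRI replicate 3, and Malat1, of nuclear speckles, at 10.2, 16.1 and 20.2 CPM, 104 CPM and 597 CPM. Malat1 was thus above all sham libraries in both injured libraries, and Neat1 in 1 of them. The call of Neat1 was lost without bIRI replicate 3 (adjusted p 0.946) or sham replicate 1 (0.0626). With trends of transcript length and GC content removed within the fit, 6572 genes were called, against 6303, and only 5317 were called in both.

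**Figure D5:**
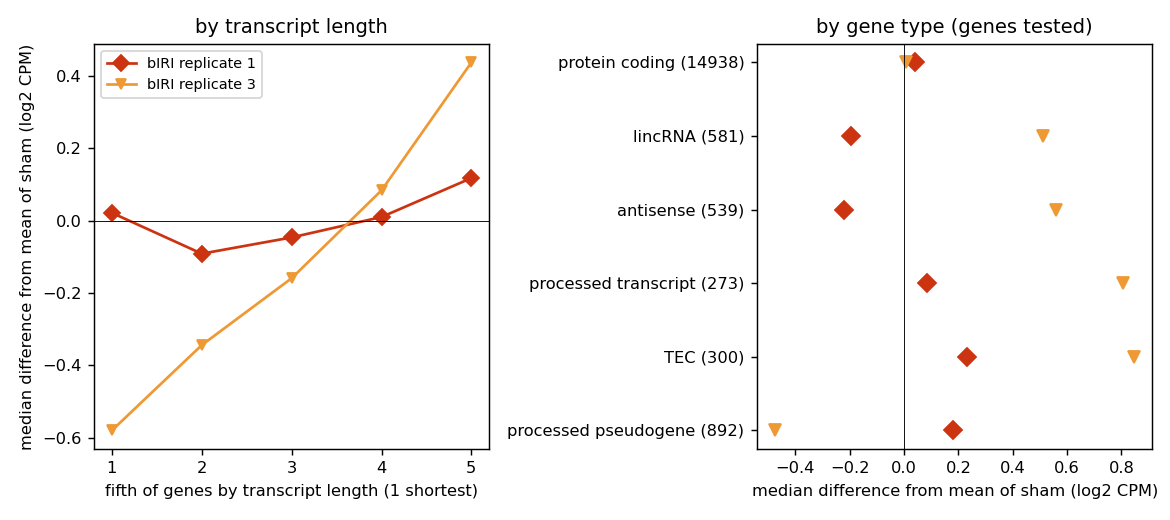
Left, median difference from the mean of sham in log2 CPM for 5 groups of genes of equal number by transcript length, from the shortest (1) to the longest (5); right, the same by annotated gene type, with the number of genes tested in brackets. Red diamonds are bIRI replicate 1 and orange triangles bIRI replicate 3, which runs from -0.58 to 0.438 over the length groups while bIRI replicate 1 stays between -0.0912 and 0.118.

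Among 7487 genes with at least 20 CPM in a bIRI library, bIRI replicate 3 was at least 2-fold above bIRI replicate 1 in 638 and below it in 919, with no test. Of the 10 largest excesses in bIRI replicate 3, Slc4a1, Slc12a1 and Neat1 were described above. Sptssb, a subunit of the enzyme that starts sphingolipid synthesis, was at 0.398, 1.83 and 0.362 CPM in sham and 1.401 and 20.1 CPM in bIRI. Aldh1a3, which makes retinoic acid, was at 0.944, 2.69 and 0.879 CPM in sham and 2.76 and 52.8 CPM in bIRI. Prox1, a factor of lymphatic and some tubule cells, was at 5.54, 7.19 and 2.82 CPM and 2.78 and 41.03 CPM, and Rgs11, a regulator of G protein signals, at 2.16, 2.83 and 2.95 CPM and 0.897 and 30.3 CPM. For these genes bIRI replicate 1 lay in, near or below the sham range. The gasdermin genes Gsdmc2 and Gsdmc3, near copies of each other, and Gnas, a locus of overlapping transcripts, are uncertain, and reached 60.4, 45.3 and 25.3 CPM in bIRI replicate 3. Of the 10 largest excesses in bIRI replicate 1, Ch25h, which makes an oxysterol of inflammation, was at 0.919, 2.53 and 2.15 CPM in sham and 40.1 and 3.86 CPM in bIRI, and Dusp5, a phosphatase induced by growth signals, at 2.63, 3.33 and 7.11 CPM and 48.9 and 4.89 CPM. Angptl7, a secreted angiopoietin-like gene, was at 2.54, 2.49 and 7.03 CPM and 35.5 and 2.09 CPM, and Ctxn3 at 4.35, 0.731 and 6.15 CPM and 32.4 and 1.701 CPM. Krt20, Ren1, Cyp27b1, the mitochondrial gene mt-Nd3 and the pseudogene Rpl30-ps10 were also in that set. Several of these genes had passed the test over both libraries, and lost the call without the library in which they were high. Without bIRI replicate 3 the adjusted p was 0.351 for Aldh1a3, 0.682 for Sptssb, 0.501 for Gsdmc2, 0.382 for Gsdmc3 and 0.397 for Gnas, and without bIRI replicate 1 it was 0.0668 for Ch25h and 0.892 for Dusp5. Sptssb, Gnas and Dusp5 were not called without sham replicate 1 either (0.0868, 0.0942 and 0.0819). Nor were Gnas and Dusp5 without sham replicate 2 (0.0881 and 0.0746), or Sptssb and Gnas without sham replicate 3 (0.0872 and 0.117).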

How the data were processed

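The authors deposited raw counts per gene, whole numbers for 29678 Ensembl genes, 1 table per library. Per the labels, RNA was extracted with TRIzol, selected with oligo(dT) and sequenced as paired ends on 2 kinds of instrument, with no record of which library ran on which. Per the submitters' processing notes, HISAT2, featureCounts of Subread and DESeq2 were used with build mm10, with versions and strand setting not given in the sources used here. Gene names, types and positions came from the GENCODE M21 annotation (GRCm38) and named 29220 genes.

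The 3 sham, 2 bIRI and 3 pretreated libraries were fitted together with edgeR 4.0.16 in R 4.3.3, with filterByExpr (17967 genes kept), TMM scaling and the robust quasi-likelihood test of bIRI minus sham, which had 5 residual degrees of freedom (biological coefficient of variation 0.296). P-values were adjusted by the Benjamini-Hochberg method over all genes tested, with a threshold of 0.05. SE is the size of the log2 fold change divided by the square root of F. Each bIRI library was also set singly against the mean of the 3 sham libraries in log2 CPM with a prior count of 2, with no test. On simulated counts of 17416 genes for this comparison, with 200 changed and a simulated coefficient of variation of 0.2, smaller than that of the data, the fit recovered 42% of 2-fold and 89% of 4-fold changes, with 13 false calls.

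Genes named outside the lists were the 12 largest rises and falls among called genes whose groups did not overlap and with a mean of at least 20 CPM in a group, and the 10 largest differences between the bIRI libraries in each direction, predicted gene models left out. Some genes of these sets and lists are not reported here. Up to 6 members of a list were to be named, those of high level or far from the median; members beyond 6 were chosen after their values were seen. The comparison, the members and the lists were chosen with earlier results of these data known. Alternatives were DESeq2 1.42.0, other scalings, filters and library sets, a fold threshold, a replicate block, each library left out and, chosen after seeing the data, removal of transcript length and GC trends and all lists with each bIRI library alone. Depth allows changes to be read only above 3 counts in a library.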

Additional observations from a re-analysis of the deposited data

How the results depend on the processing

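The number of genes higher in bIRI was 1831 when fold changes were tested against 1.5, and the number lower was 1540. With 1 library left out, 2088 (without sham replicate 2) to 4454 (without bIRI replicate 1) genes were higher and 2062 (without sham replicate 1) to 4610 (without bIRI replicate 1) lower, where a lone bIRI library is assumed to vary like the other groups. All genes called in common between these settings and the 6303 had the same direction, which fits that share most libraries could hardly fail to give. Of the 6303, 4152, 4167 and 4486 were still called without sham replicates 1, 2 and 3. DESeq2 called 7198 genes, the 5 sham and bIRI libraries alone 4487, all 9 deposited libraries together 8433, no filter on low counts 6403, and removal of length and GC trends 6572. The last 6572 included 5317 of the 6303. Upper-quartile scaling moved the median log2 fold change of all genes from 0.08 to 0.17 and the share of calls that were higher from 53.9% to 59.3%. At a fold of 1.5, 5033 and 4750 genes lay above and below sham in bIRI replicate 1 and 5263 below in bIRI replicate 3, and at a fold of 4, 960, 1026, 1617 and 955 lay above and below in bIRI replicates 1 and 3. With 1 library left out, the median log2 fold change of the immediate early list ran from -0.131 (without bIRI replicate 1) to 0.989, and the log2 fold changes of Neat1 and Gnas from -0.0329 and -0.537 (without bIRI replicate 3) to 4.056 and 3.318. Of 3544 values of 187 genes named with a call under the alternatives, 3384 kept direction and call, 158 lost the call and 2 reversed. Under the settings named next, some list counts moved by over 1.5 times and at least 2 genes. With only the sham and bIRI libraries, 3 principal cell, 1 endothelial, 1 pericyte and smooth muscle, 3 neutrophil, 5 YAP target and 3 nuclear-retained RNA genes were higher, 0 intercalated cell genes were higher and 3 lower, and 0 podocyte, 0 matrix, 3 developmental factor and 5 lymphocyte genes were lower. With removal of length and GC trends, 10 ribosomal protein and 4 proteasome genes were higher, 6 interferon-stimulated genes were higher and 2 lower, and 0 intercalated cell genes were higher and 2 lower. DESeq2 called 4 ribosomal protein genes higher, and without replicate 1 of the beta-hydroxybutyrate group, 1 interferon-stimulated gene was higher. The causes of these changes were not tested.

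Replicate numbers were shared between groups, and deviations of same-numbered libraries from their group means correlated between -0.206 and 0.0925. The deviations of the 2 bIRI libraries mirror each other, so this check cannot decide whether same-numbered libraries were paired. With the replicate block, 2315 genes were higher and 2266 lower. It left 0 intercalated cell, 2 pericyte and smooth muscle, 5 unfolded protein response, 3 metal and iron, 5 YAP target, 1 interferon-stimulated and 0 ribosomal protein genes higher, and 0 podocyte, 0 matrix, 3 developmental factor and 4 lymphocyte genes lower. Depth limits low genes: 3 counts were 0.0654 to 0.0775 CPM, and most 2-fold changes were missed in the simulation.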
